A study of Mus musculus with 12 samples.

Results

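The neuropilins and the vascular endothelial growth factor (VEGF) ligands and receptors were taken as 8 genes: the coreceptors Nrp1 and Nrp2, the ligands Vegfa, Vegfb and Vegfc, and the receptor tyrosine kinases Flt1, Kdr and Flt4. All probe sets annotated with exactly 1 of these symbols were used, 21 of the 45101 on the array, for 8 of 18193 genes with such a set. The family was singled out because Nrp1 and Vegfc stood high in INV16 against MIB control in an earlier look at the same arrays. Values of INV16 against MIB control or the ACD mutant are therefore a description, without p-values for these 8 genes, and only the ACD mutant against MIB control is tested gene by gene. That test is not independent of the choice, because it uses the MIB control arrays on which the family was singled out.

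Expression was measured in primitive mouse bone marrow progenitors, sorted without lineage markers or FLT3 on their surface but with c-kit and sca-1, with 1 Affymetrix array per sample. All cells were cultured for 24 h in DMEM with 10% serum and 2 cytokines, 50 ng/ml SCF and 5 ng/ml IL-6, exposed to retrovirus for 4 h and kept for a further 20 h before RNA extraction. INV16 (4 arrays, replicates 1 to 4) carried the leukaemia fusion of CBFB with the myosin MYH11. The ACD mutant (3 arrays, replicates 1 to 3) carried the fusion without its assembly competent domain, described by the submitters as not leukaemogenic. MIB control (5 arrays, replicates 3 to 7) carried the empty vector. Productively transduced, GFP-positive cells were sorted in every group, the fusion was driven by the retrovirus, and each replicate was a separate sort and transduction. Mouse strain, age and the number of animals per sort are not given in the sources used here.

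VEGF ligands are secreted dimers that act through receptor tyrosine kinases: Flt1 binds VEGF-A and VEGF-B, Kdr is the main signalling receptor for VEGF-A, and Flt4 is the receptor for VEGF-C. Neuropilins have a short cytoplasmic tail and no kinase; they present VEGF ligands to the kinases and class 3 semaphorins to plexins. The family is best known in blood and lymph vessels, and several members are also made by blood progenitors, megakaryocytes and myeloid cells.

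INV16 replicate 4 stood apart and is given on its own throughout. Its correlation with the other 11 arrays over all probe sets was 0.895 to 0.917, against 0.985 to 0.996 among those 11. The mean level of 10 mast cell markers was 10.15 log2 units on that array, against 6.13 to 6.19 on the other INV16 arrays, 6.47 to 6.63 in the ACD mutant and 5.85 to 6.54 in MIB control. The mean of 8 progenitor markers was 8.36 there, against 10.16 to 10.69, 10.43 to 10.58 and 10.24 to 10.50. Hoxa9, Procr, Meis1 and Cd34 lay below all other arrays, at 4.39, 4.28, 7.32 and 7.39. Myb and Kit lay within the range of the other arrays, and Gata2 and Slamf1 lay above it. For Gapdh the 3' signal exceeded the 5' signal, a sign of RNA degradation when large, by 3.64 on that array, by 3.17 in ACD mutant replicate 1 and by 1.10 to 1.98 on the other 10. The arrays also fell into 2 sets by how far the spike-in control BioC exceeded BioB in log2 signal. Set A, at 1.07 to 1.21, held INV16 replicates 1 to 3 and MIB control replicates 3 to 5. Set B, at -0.11 to 0.07, held INV16 replicate 4, all ACD mutant arrays and MIB control replicates 6 and 7. No set holds both INV16 replicates 1 to 3 and the ACD mutant, so spike-in set and group cannot be told apart between them other than through MIB control. Of 13 endothelial markers, whose cells are the classical site of the VEGF receptors, Cdh5, Lyve1 and Prox1 lay below the expression filter. The mean of the 13 was 5.85 to 5.91 in INV16 without replicate 4, 5.81 to 5.92 in the ACD mutant and 5.62 to 6.04 in MIB control. Single markers went different ways. Egfl7 measured 10.54, 10.49 and 9.32 in INV16 replicates 1 to 3, 9.15 to 9.43 in the ACD mutant and 8.99 to 9.68 in MIB control. Vwf measured 5.13, 4.73 and 5.68, then 7.13 to 7.89 and 5.08 to 7.74. Of the 10 past the filter limma called 0 higher and 0 lower in INV16 than in MIB control. Megakaryocyte markers (6 genes) averaged 7.16 to 7.24 in INV16 without replicate 4, 7.95 to 8.22 in the ACD mutant and 7.04 to 8.60 in MIB control, and 8 monocyte and macrophage markers 8.47 to 8.91, 9.06 to 9.28 and 8.36 to 9.41. INV16 thus lay below the ACD mutant on both lists and within the MIB control range, and the part of this in the differences between INV16 and the ACD mutant was not tested.

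All values are deposited log2 signals, and a level is read only within a probe set, never between probe sets or genes. In sorted cells measured in bulk, a change in the number of cells that carry a transcript and a change in transcript per cell cannot be told apart. All 8 genes had a probe set past the expression filter (a mean over all arrays above 5.10), and 16 of the 21 sets passed it. The sets 1419417_at of Vegfc and 1444052_at of Flt4 passed only when the INV16 arrays were counted. Each gene is described first by its set with the highest mean.

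**Figure D1:**
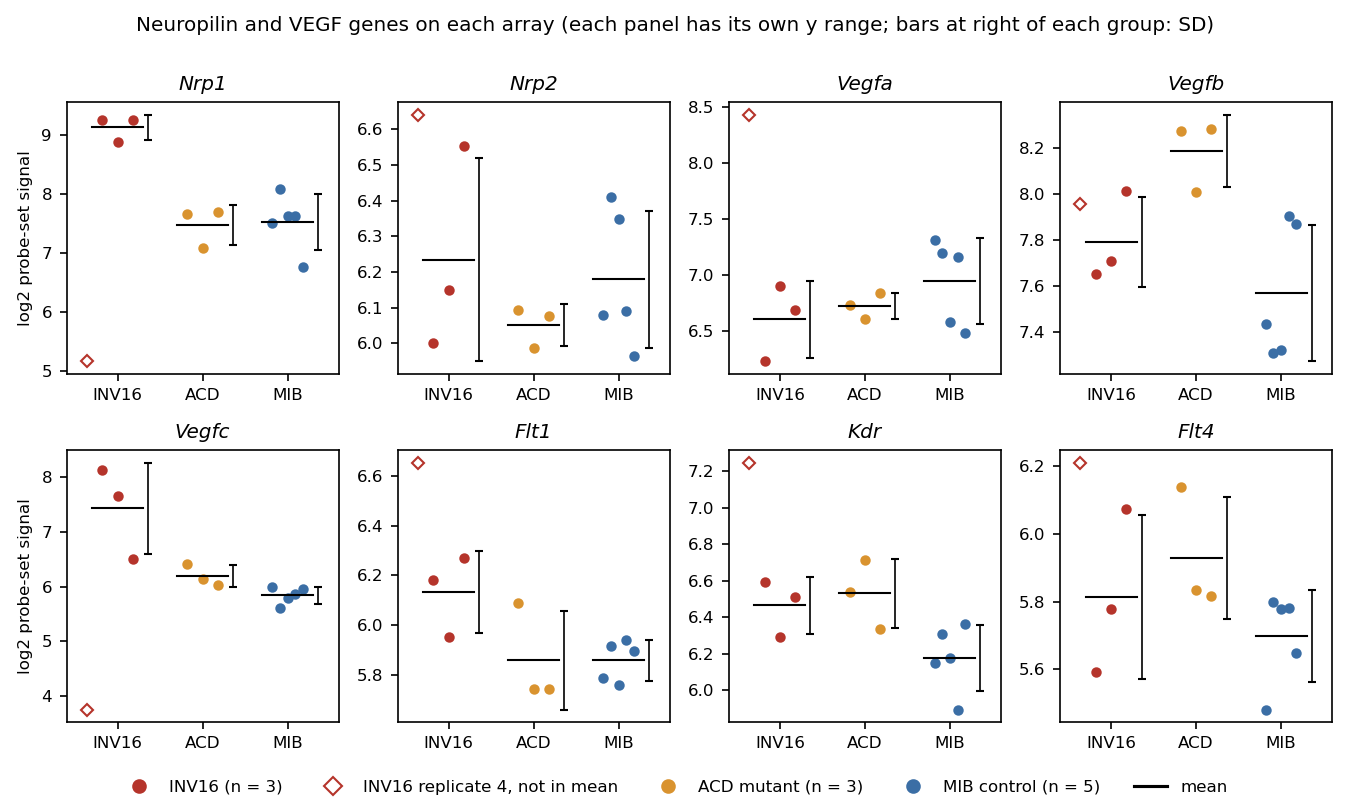
Each point is 1 array, on the log2 signal axis of the most highly measured probe set of each gene, with the mean and SD of each group and INV16 replicate 4 as an open diamond outside the mean. Nrp1 and Vegfc are higher in INV16 replicates 1 to 3 than on any ACD mutant or MIB control array, while replicate 4 is the lowest array for both and the highest for Nrp2, Vegfa, Flt1, Kdr and Flt4.

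The promoters of Nrp1 and Vegfc are shown because the family was singled out on these genes in cells that carry a fusion of CBFB, the partner of the DNA-binding RUNX proteins, and that of Flt1 because it was the 1 window of the family with a RUNX match. The windows, from RefSeq on build GRCm38.p6, run from 250 bases before to 50 bases after the annotated transcript start, which for Nrp1 and Flt1 lies inside the gene's full span. They lie at chr8:128358823-128359122 on the plus strand for Nrp1, chr8:54077282-54077581 on the plus strand for Vegfc and chr5:147725962-147726261 on the minus strand for Flt1. Capitals mark the RUNX letters TGTGGT or TGCGGT and the hypoxia-inducible factor letters ACGTG or GCGTG, searched on both strands.
Nrp1 promoter: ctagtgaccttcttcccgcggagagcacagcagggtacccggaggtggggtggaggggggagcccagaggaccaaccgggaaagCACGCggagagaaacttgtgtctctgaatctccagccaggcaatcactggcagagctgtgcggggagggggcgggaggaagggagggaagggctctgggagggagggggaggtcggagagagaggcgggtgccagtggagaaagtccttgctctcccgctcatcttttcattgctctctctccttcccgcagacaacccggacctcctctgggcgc
Vegfc promoter: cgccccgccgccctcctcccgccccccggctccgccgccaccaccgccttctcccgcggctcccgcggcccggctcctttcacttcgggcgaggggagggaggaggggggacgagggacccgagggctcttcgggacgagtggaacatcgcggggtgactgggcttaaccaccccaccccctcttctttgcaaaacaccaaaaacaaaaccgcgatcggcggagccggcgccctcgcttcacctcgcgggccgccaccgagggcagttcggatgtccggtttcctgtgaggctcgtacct
Flt1 promoter: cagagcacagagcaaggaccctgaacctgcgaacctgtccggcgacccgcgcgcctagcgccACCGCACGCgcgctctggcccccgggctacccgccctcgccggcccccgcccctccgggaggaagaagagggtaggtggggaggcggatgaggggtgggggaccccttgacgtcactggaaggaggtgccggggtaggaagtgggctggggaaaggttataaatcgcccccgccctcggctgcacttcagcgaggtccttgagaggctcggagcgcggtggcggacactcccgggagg
The Nrp1 window held 1 hypoxia match and 0 RUNX matches, and the Vegfc window held 0 of either. In the Flt1 window the RUNX match, TGCGGT on the opposite strand, overlapped a GCGTG match. Of 32851 promoter windows of the same length, 22.4% held a RUNX match and 43.8% a hypoxia match. The RUNX letters were in 1 and the hypoxia letters in 6 of the family's 9 windows, of which Vegfa has 2. The bases G and C made up 59.3 to 75.3% of these 9 windows, against a median of 52.7% over all windows. The part of base composition in the number of matches was not tested. A match is only a run of letters, and its absence here says nothing of sites outside these 300 bases.

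Nrp1 (chr8:128358591-128505476, GRCm38.p6 as all gene positions here), the receptor for semaphorin 3A and coreceptor for VEGF-A, was higher in INV16 replicates 1 to 3 on all 4 of its probe sets. Set 1448943_at measured 9.25, 8.88 and 9.25 in INV16 replicates 1 to 3, 7.65, 7.09 and 7.69 in the ACD mutant, and 7.50, 8.07, 7.62, 7.62 and 6.76 in MIB control replicates 3 to 7. The lowest of these INV16 arrays lay above every array of the other groups, and the ACD mutant arrays lay within the MIB control range. The log2 fold change was 1.61 (SE 0.24), or 3.06-fold, in INV16 against MIB control and 1.65 (SE 0.27), or 3.14-fold, against the ACD mutant. Averages were 9.13 ± 0.21 (SD, n = 3) in INV16, 7.47 ± 0.34 (SD, n = 3) in the ACD mutant and 7.51 ± 0.48 (SD, n = 5) in MIB control. In the ACD mutant against MIB control the log2 fold change was -0.04 (SE 0.24, 95% interval -0.55 to 0.47, limma adjusted p = 0.956).

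The other Nrp1 sets kept the same order of INV16 above both other groups, with different sizes. Set 1448944_at measured 7.80, 7.80 and 7.69 in INV16, 6.18, 5.27 and 6.32 in the ACD mutant and 5.69 to 6.62 in MIB control, 1.62 log2 higher in INV16 than in MIB control. Set 1418084_at measured 8.05, 8.16 and 8.36 in INV16, 6.58, 6.01 and 6.82 in the ACD mutant and 6.72 to 7.14 in MIB control, 1.25 log2 higher. Here ACD mutant replicates 1 and 2 lay below all MIB control arrays. In a fit to all probe sets past the filter this set stood at -0.47 (SE 0.17) in the ACD mutant relative to MIB control, with a limma adjusted p = 0.141. Set 1457198_at showed the smallest difference, 0.62 log2, at 6.81, 6.69 and 7.20 in INV16, 6.24, 6.12 and 6.12 in the ACD mutant and 6.16 to 6.47 in MIB control. The deposited values do not say which part or form of the transcript each set reads.

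Within spike-in set A alone, which holds INV16 replicates 1 to 3 and MIB control replicates 3 to 5, the Nrp1 difference of INV16 from MIB control was 1.40 (SE 0.18). With the spike-in set as a block, the difference of INV16 from the ACD mutant was 1.11 (SE 0.35), and 0 of 12918 genes were called in that comparison by limma (1492 at unadjusted p under 0.05). Leaving out INV16 replicate 1 gave 1.55 against MIB control. Leaving out ACD mutant replicate 2, the array with the lowest Nrp1 of that group, gave 1.46 against the ACD mutant.

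On INV16 replicate 4 Nrp1 was low rather than high. It measured 5.16 on set 1448943_at, 4.29 on 1418084_at and 4.93 on 1448944_at, below all 11 other arrays on each, and 6.20 on 1457198_at, within the MIB control range. With that array counted in its group, INV16 averaged 8.13 ± 1.99 (SD, n = 4) on set 1448943_at, and the log2 fold change against MIB control was 0.62 (SE 0.72). The part of the mast cell markers and of RNA integrity on that array in these values was not tested. Nrp1 is also carried by plasmacytoid dendritic cells; the mean of 6 markers of these cells was 7.00 to 7.12 in INV16 replicates 1 to 3, 7.19 to 7.39 in the ACD mutant and 6.98 to 7.38 in MIB control, with a median difference of -0.10 between INV16 and MIB control over these markers. Of the 5 past the filter limma called 1 higher and 0 lower in INV16 than in MIB control. The called gene was Tcf4, at 10.64, 10.34 and 10.28 in INV16 replicates 1 to 3, 9.78 to 10.21 in the ACD mutant and 9.50 to 9.93 in MIB control. Irf8, of the same list and named after its values were seen, lay the other way, at 6.80, 7.08 and 6.44 in INV16, 8.04 to 8.49 in the ACD mutant and 7.12 to 8.62 in MIB control.

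Vegfc (chr8:54077532-54186454) is the ligand of Flt4 best known for the growth of lymph vessels. It was higher in INV16 replicates 1 to 3 on sets 1440739_at and 1439766_x_at, most in replicates 1 and 2. Set 1440739_at measured 8.13, 7.66 and 6.51 in INV16 replicates 1 to 3, 6.42, 6.13 and 6.03 in the ACD mutant, and 5.98, 5.60, 5.79, 5.87 and 5.95 in MIB control. INV16 did not overlap with the other groups, but replicate 3 lay only just above ACD mutant replicate 1. Averages were 7.43 ± 0.83 (SD, n = 3) in INV16, 6.19 ± 0.20 (SD, n = 3) in the ACD mutant and 5.84 ± 0.15 (SD, n = 5) in MIB control. The log2 fold change was 1.59 (SE 0.27), or 3.02-fold, in INV16 against MIB control and 1.24 (SE 0.30), or 2.36-fold, against the ACD mutant. These SEs rest on a spread pooled over the 3 groups. With an SD of 0.83 in INV16 against 0.20 and 0.15 in the others, they understate the spread of INV16.

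The other Vegfc sets gave the same order of the INV16 arrays. Set 1439766_x_at measured 7.29, 7.07 and 5.72 in INV16 replicates 1 to 3, 5.27 to 5.51 in the ACD mutant and 5.14 to 5.57 in MIB control. Set 1419417_at measured 7.23, 6.65 and 5.57 in INV16, 5.18 to 5.30 in the ACD mutant and 4.70 to 5.32 in MIB control. Because the INV16 arrays brought this set past the filter, it is shown but not counted as further support. The log2 fold changes of INV16 against MIB control were 1.34 and 1.47. Nrp1 did not share this order: on set 1448943_at replicates 1 and 3 were equal to 2 decimals at 9.25.

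In the ACD mutant, Vegfc lay above every MIB control array on set 1440739_at but overlapped with MIB control on the other 2 sets. That set differed by 0.35 (SE 0.27, 95% interval -0.22 to 0.93, limma adjusted p = 0.525), and within spike-in set B it was 0.28 (SE 0.14). The first SE includes the wide spread of INV16, and a fit to these 2 groups alone gave 0.12 (limma adjusted p = 0.160). INV16 replicate 4 measured 3.75 on set 1440739_at and 4.22 on 1439766_x_at, below all 11 other arrays, and 4.99 on 1419417_at, within the MIB control range. Counting it in its group gave a log2 fold change of 0.67 (SE 0.68) against MIB control. Leaving out INV16 replicate 1 gave 1.25 and replicate 2 gave 1.48, and leaving out replicate 3, the lowest of them, gave 2.06. Within spike-in set A the difference was 1.64 (SE 0.34).

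**Figure D2:**
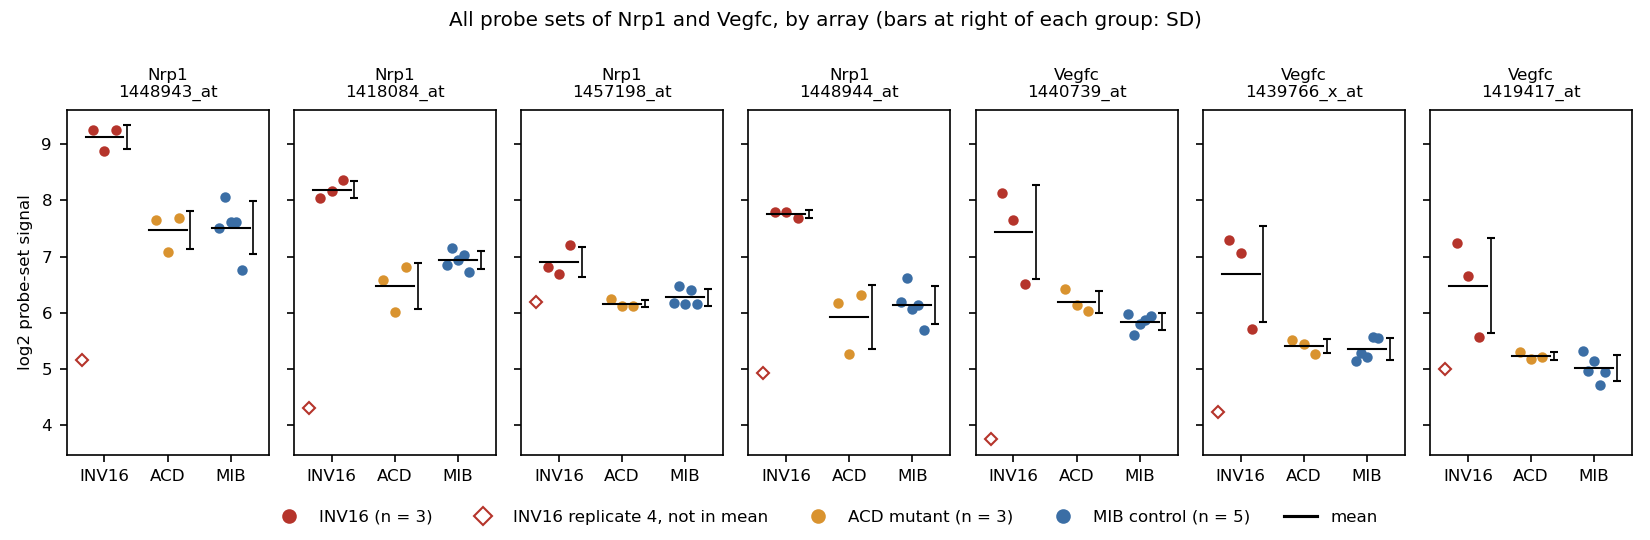
The 4 Nrp1 and 3 Vegfc probe sets are plotted by array on a log2 signal axis, with the mean and SD of each group and INV16 replicate 4 as an open diamond. Heights compare arrays within a panel, not panels with each other. In each panel INV16 replicates 1 to 3 lie above all ACD mutant and MIB control arrays. For Vegfc replicate 3 is the lowest of these INV16 arrays. Set 1419417_at of Vegfc passed the filter only with the INV16 arrays and is not counted as support.

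Nrp2 (chr1:62703317-62818692), the neuropilin that binds semaphorin 3F and VEGF-C, overlapped between all 3 groups. Set 1426528_at measured 6.00, 6.15 and 6.55 in INV16 replicates 1 to 3, 6.09, 5.99 and 6.08 in the ACD mutant, and 6.08, 6.41, 6.35, 6.09 and 5.96 in MIB control. INV16 replicate 3 was the highest and MIB control replicate 7 the lowest of these 11 arrays, with a log2 fold change of 0.06 (SE 0.14) in INV16 against MIB control and -0.13 (SE 0.14, 95% interval -0.43 to 0.17, limma adjusted p = 0.689) in the ACD mutant against MIB control. The second set past the filter, 1435349_at, differed by 0.17 and 0.0081. The other Nrp2 sets lay below the filter, at 4.57 to 5.48 for 1456778_at and 3.65 to 4.14 for 1447343_at over all 12 arrays.

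Vegfa (chr17:46016993-46032377), the ligand induced by low oxygen, averaged lower in INV16 and the ACD mutant than in MIB control, within overlapping ranges. Set 1420909_at measured 6.23, 6.90 and 6.69 in INV16 replicates 1 to 3, 6.73, 6.60 and 6.83 in the ACD mutant, and 7.31, 7.19, 6.58, 7.16 and 6.48 in MIB control. The 3 highest of these values were in MIB control. The log2 fold change was -0.34 (SE 0.20) in INV16 and -0.22 (SE 0.20, 95% interval -0.66 to 0.22, limma adjusted p = 0.624) in the ACD mutant, each against MIB control. The second set, 1451959_a_at, differed by -0.17 and -0.0057. INV16 replicate 4 was the highest array for Vegfa, at 8.43 on set 1420909_at and 7.31 on 1451959_a_at, against at most 7.31 and 6.54 on the other 11 arrays.

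Vegfb (chr19:6982472-6987651), a ligand of Flt1 with a limited part in vessel growth, was the member with the largest difference between the ACD mutant and MIB control. Its only set, 1451803_a_at, measured 8.27, 8.01 and 8.28 in the ACD mutant and 7.44, 7.31, 7.32, 7.90 and 7.87 in MIB control. The groups did not overlap, yet MIB control replicates 6 and 7, of the same spike-in set as the ACD mutant, lay just below it. The log2 fold change was 0.62 (SE 0.16, 95% interval 0.27 to 0.97, limma adjusted p = 0.0645). Within spike-in set B it was 0.30 (SE 0.12, adjusted p = 0.227). The test was passed only when one of those 2 controls was left out, at an adjusted p = 0.0446 without MIB control replicate 6 and 0.0307 without replicate 7. In INV16 Vegfb measured 7.65, 7.71 and 8.01, and 7.95 on replicate 4, with a log2 fold change of 0.22 (SE 0.16) against MIB control and -0.40 (SE 0.18) against the ACD mutant. With the spike-in set as a block the last value turned to 0.14 (SE 0.18).

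The receptor kinases had log2 fold changes of 0.12 to 0.29 in INV16 and of -0.0011 to 0.35 in the ACD mutant, each against MIB control. Kdr (chr5:75932827-75979072), the main VEGF-A receptor, measured 6.59, 6.29 and 6.51 in INV16 replicates 1 to 3, 6.54, 6.72 and 6.34 in the ACD mutant, and 6.15, 6.31, 6.18, 5.90 and 6.36 in MIB control on its only set. Both INV16 and the ACD mutant overlapped with MIB control at their lower end. The log2 fold change was 0.29 (SE 0.13) in INV16 and 0.35 (SE 0.13, 95% interval 0.07 to 0.63, limma adjusted p = 0.151) in the ACD mutant, where it was 0.40 within spike-in set B.

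Flt1 (chr5:147561604-147726438), which also exists as a soluble form that traps VEGF, measured 6.18, 5.95 and 6.27 in INV16 replicates 1 to 3 on set 1451756_at. It measured 6.09, 5.75 and 5.74 in the ACD mutant and 5.79, 5.92, 5.76, 5.94 and 5.90 in MIB control. INV16 lay above MIB control by a narrow margin, since INV16 replicate 2 and MIB control replicate 6 differed by about 0.01, and it overlapped with the ACD mutant. The log2 fold change was 0.27 (SE 0.11) in INV16 and -0.0011 (SE 0.11, 95% interval -0.24 to 0.24, limma adjusted p = 0.997) in the ACD mutant, each against MIB control. The other 3 Flt1 sets lay below the filter, at 3.94 to 5.04 over all 12 arrays.

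Flt4 (chr11:49609679-49652739), the VEGF-C receptor, measured 5.59, 5.78 and 6.07 in INV16 replicates 1 to 3, 6.14, 5.83 and 5.82 in the ACD mutant, and 5.48, 5.80, 5.78, 5.78 and 5.65 in MIB control on set 1421442_at. The ACD mutant lay just above MIB control, by 0.23 (SE 0.13, 95% interval -0.05 to 0.51, limma adjusted p = 0.362), while INV16 overlapped with both, with a log2 fold change of 0.12 (SE 0.13) against MIB control. The second set, 1444052_at, gave 0.08 in INV16 and -0.027 in the ACD mutant. INV16 replicate 4 was the highest array for all 3 receptors, at 7.25 for Kdr, 6.65 for Flt1 and 6.21 for Flt4, against at most 6.72, 6.27 and 6.14 on the other 11.

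**Figure D3:**
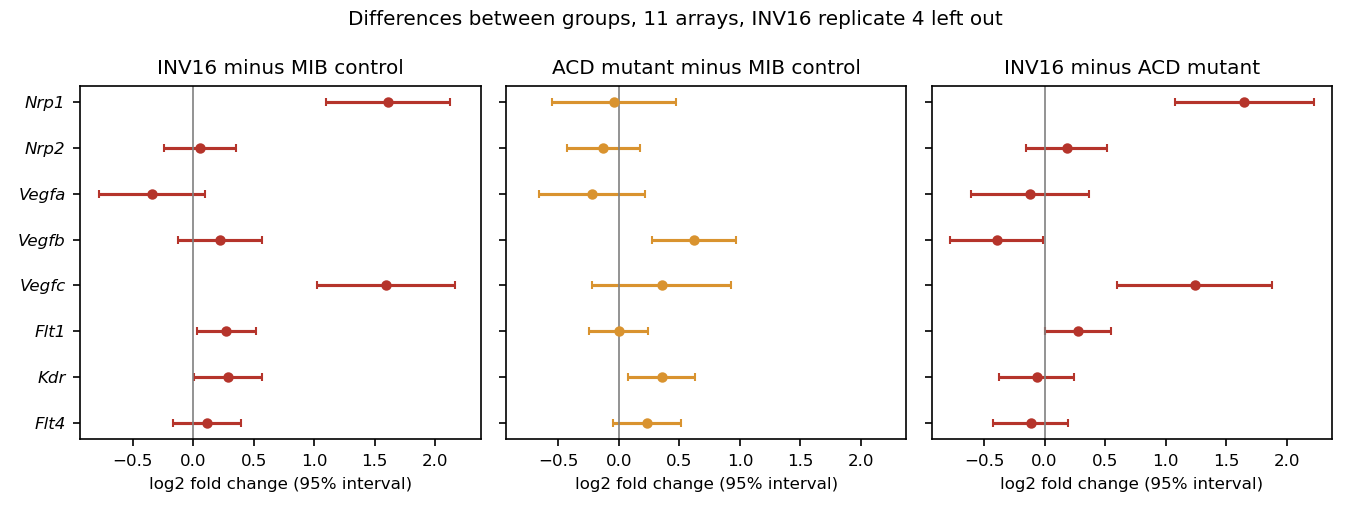
Points are log2 fold changes of the 8 genes from the fit to 11 arrays, bars are 95% intervals, and each panel is 1 comparison. Nrp1 lies at 1.61 and 1.65 and Vegfc at 1.59 and 1.24 in the comparisons of INV16. In the ACD mutant against MIB control the largest value is Vegfb at 0.62. The intervals rest on a spread pooled over the groups, and those of INV16 are not tests, because the genes were chosen on INV16.

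Counted together, limma called 2 of the 8 members higher and 0 lower in INV16 against MIB control, where 0.627% of the 12918 genes tested were called higher and 1.07% lower. It called 1 higher and 0 lower in INV16 against the ACD mutant, where 0.31% were called higher and 1.76% lower. These counts follow from how the family was chosen. Nothing is read from them, or from how they change when arrays are left out. Leaving out INV16 replicate 1 took Nrp1 and Vegfc out of the first count and leaving out INV16 replicate 2 took Vegfc out. Leaving out ACD mutant replicate 2 took Nrp1 out of the second count, and leaving out INV16 replicate 3 or MIB control replicate 7 added Vegfc to it. In the ACD mutant against MIB control limma called 0 of the 8 (2 at unadjusted p under 0.05, Vegfb and Kdr), where 0.991% of genes were called higher and 0.712% lower. Over all 12918 genes, 2523 had an unadjusted p under 0.05 by limma in that comparison. The members' median log2 fold change was 0.25, 0.12 and 0.06 in INV16 against MIB control, the ACD mutant against MIB control and INV16 against the ACD mutant. Over all genes it was -0.03, 0.01 and -0.02. Each pair of these comparisons shares the arrays of 1 group.

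Calls in the lists of the surrounding pathway were Pdgfrb for INV16 against MIB control and Sema3f for INV16 against the ACD mutant. Plxnd1 and Gab1 were called between the ACD mutant and MIB control. Among all 12918 genes tested, limma called 219, 267 and 220 in these comparisons, in the order given. At unadjusted p under 0.05 by limma there were 2039, 2451 and 2523 genes. Whether the lists differed from these shares was not tested. Class 3 semaphorins, the other ligands of the neuropilins, and their plexin coreceptors had 6 of 12 listed genes past the filter. Limma called 0 in INV16 against MIB control (1 with unadjusted p under 0.05, Sema3f), with a median log2 fold change of 0.19 against -0.03 for all genes. Plxnd1, the receptor for semaphorin 3E, differed by 0.95 log2 between the ACD mutant and MIB control, higher in the mutant (7.58 ± 0.24, n = 3, against 6.63 ± 0.45, n = 5, SD; limma adjusted p = 0.0464). Within spike-in set B this was 0.48 (adjusted p = 0.158), and the call was kept in 5 of 18 other settings. Sema3f, the semaphorin that signals through Nrp2, was 0.64 log2 higher in INV16 than in the ACD mutant on its main set (11.25 ± 0.04 against 10.61 ± 0.28, SD, n = 3 each; limma adjusted p = 0.0395). Its other sets differed by 0.12 each, and the call was kept in 9 of 18 other settings; with the spike-in set as a block it was lost at 0.51 (adjusted p = 0.386).

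Of the other VEGF ligands, neuropilin partners and enzymes that process VEGF-C, 6 of 10 genes on the array passed the filter, and limma called 0 in any comparison (3, 2 and 1 at unadjusted p under 0.05 in INV16 against MIB control, the ACD mutant against MIB control and INV16 against the ACD mutant, with medians of 0.19, 0.03 and 0.09). The largest difference in INV16 against MIB control was that of Adamts3, the protease that activates VEGF-C, at 0.53 (7.15 ± 0.41, n = 3, against 6.61 ± 0.19, n = 5, SD; adjusted p = 0.165). It passed only without INV16 replicate 3 (0.76, limma adjusted p = 0.0335). Gipc1, which binds the tail of Nrp1, stood at -0.21 (adjusted p = 0.607). Among 21 genes of VEGF receptor signalling, limma called 0 in INV16 against MIB control (5 at unadjusted p under 0.05), with a median of -0.01, beside 0.19 in the ACD mutant against MIB control. The docking protein Gab1 was called higher in the ACD mutant, by 0.47 log2 over MIB control (7.97 ± 0.05, n = 3, against 7.50 ± 0.10, n = 5, SD; limma adjusted p = 0.0450). It was 0.37 within spike-in set B (adjusted p = 0.116), was kept in 6 of 18 other settings, and its other sets differed by 0.81 and 0.06.

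The 12 tested genes of oxygen sensing, which sets Vegfa transcription, gave 0 calls by limma in any comparison (1, 0 and 0 at unadjusted p under 0.05), with medians of -0.03, 0.03 and -0.13 in the same order of comparisons. Hif1a differed by 0.19 (adjusted p = 0.721) and the prolyl hydroxylase Egln3 by -0.44 (adjusted p = 0.496) in INV16 against MIB control. Among 5 tested PDGF and angiopoietin relatives, which share ancestry or vascular function with the VEGF system, Pdgfrb, a receptor for platelet-derived growth factor, was the 1 gene called, lower in INV16 than in MIB control, where the median of the 5 was -0.09. INV16 averaged 7.00 ± 0.24 (SD, n = 3) and MIB control 8.10 ± 0.39 (SD, n = 5). Limma put the difference at -1.10 (SE 0.19) with an adjusted p = 0.0132. A second Pdgfrb set differed by -0.41, and within spike-in set A the value was -1.16 (adjusted p = 0.107). Leaving out INV16 replicate 1 or 2 also ended the call (adjusted p = 0.0603 and 0.0520).

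**Figure D4:**
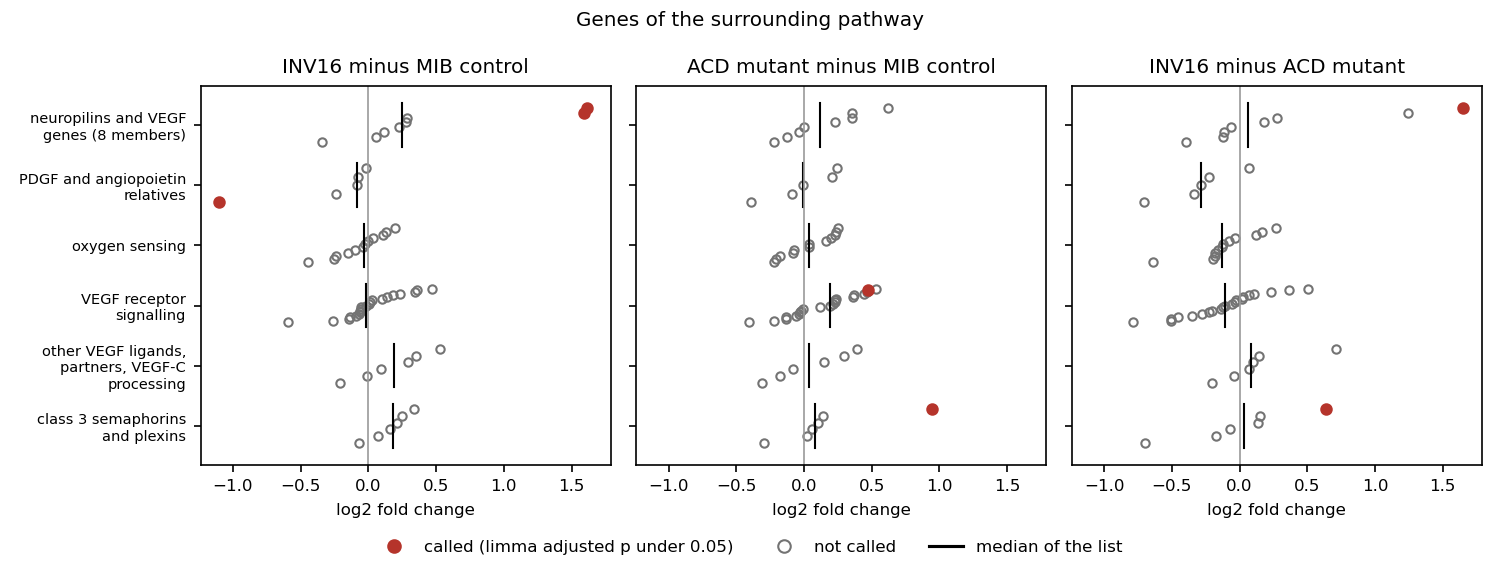
Each circle is a tested gene placed by its log2 fold change, in rows for the 8 members and 5 lists of the surrounding pathway, with a vertical bar at each row's median and filled red circles for genes called by limma. Outside the members 1 gene is called in INV16 against MIB control (Pdgfrb), 2 in the ACD mutant against MIB control (Plxnd1, Gab1) and 1 in INV16 against the ACD mutant (Sema3f).

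The genes whose levels most resembled each member over the 11 arrays were ranked by Pearson's r, as a description, since the arrays share their groups. For Nrp1 they were Plat, the tissue plasminogen activator (r = 0.95), the Cdk5 activator Cdk5r1 (0.94), Fmo2 (0.92), the prostaglandin receptor Ptger2 (0.92) and Prag1 (0.91). For Vegfc they were C77080 and the lymphoid DNA polymerase Dntt (r = 0.96 each), Card6, the stem cell surface receptor Procr (0.96 each) and the phosphatase Dusp2 (0.93). Procr measured 10.16, 10.02 and 8.59 in INV16 replicates 1 to 3, 8.33 to 8.44 in the ACD mutant and 7.65 to 8.50 in MIB control, the same order of the INV16 arrays as Vegfc. On INV16 replicate 4 Procr measured 4.28, Dntt 6.43 and Dusp2 7.97, below their averages of 9.59, 9.88 and 9.42 in INV16 replicates 1 to 3. C77080 at 10.85 and Card6 at 7.085 lay above their averages of 7.93 and 5.85, so the Vegfc neighbours did not move together on that array. The nearest genes were Scrn3, Mov10l1 and Ehd2 for Nrp2 (r = 0.92 to 0.97), Rnf19b, Naf1 and Dmxl2 for Vegfa (0.84 to 0.90), and Srpr, Supt5 and Kmt5c for Vegfb (0.94 to 0.95). For the receptors they were U90926, Pinx1 and Tbx19 for Flt1 (0.90 to 0.93), Plcb4, Phip and Pdzd9 for Kdr (0.93 each), and Allc, Cmtm5 and 2310043M15Rik for Flt4 (0.93 to 0.95).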

How the data were processed

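RNA was amplified in 2 cycles and labelled with biotin, per the labels' protocols. The deposited values are log2 probe-set signals, already summarised and scaled by the authors by a method not given in the sources used here; the log base was read from their range of 2.82 to 14.97. Array medians lay between 5.62 and 5.79, so values were used as deposited, and low values are compressed. The number of arrays limits the precision. Symbols came from GEO's annotation of the platform (34945 with 1 symbol, 932 with several, 9211 with none), and all 8 member symbols matched RefSeq by Entrez identifier. The 64 control sets were left out of the tests.

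Sets with a mean over 12 arrays above the 40th percentile (5.10) were kept, 27022 in all, and each gene took its set with the highest mean, giving 12918 genes. Limma (version 3.58.1, R version 4.3.3) was fitted with a mean per group to 11 arrays (8 residual and 5.04 prior degrees of freedom), with Benjamini-Hochberg adjustment over all genes, and 0.05 as the threshold of a call; tests were two-sided. A second fit took all 22694 single-symbol sets past the filter. Members, lists, markers, tests and the removal of INV16 replicate 4 from the fit were chosen with earlier results of these data known. Named genes are the 8 members, and the nearest 5 genes by correlation for Nrp1 and Vegfc and 3 for the others. In each list they are the called genes or, without any, the largest difference in INV16. Hif1a, Gipc1, Tcf4, Irf8, Egfl7, Vwf, the single progenitor markers and the repeat of Procr were added after their values were seen. The fit was tested on simulated data. Arrays of a group differed with an SD of 0.224 to 0.371 between them, so none was a copy. Alternatives were the spike-in set as a block or within sets, quantile normalisation, a 20th percentile filter or none, all probe sets, 2-group fits, replicate numbers as a block, INV16 replicate 4 included and each array left out.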

Additional observations from a re-analysis of the deposited data

Results flagged for a closer look

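The only member values that Dixon's test flagged within a group were those of Nrp1 on INV16 replicate 4. Among the 4 INV16 arrays it lay far from the others on 3 of the 4 Nrp1 probe sets, at 4.29 on 1418084_at (against 8.05 to 8.36), 5.16 on 1448943_at (against 8.88 to 9.25) and 4.93 on 1448944_at (against 7.69 to 7.80). Each gap exceeded Dixon's critical value for its group size. Other members also lay outside the other INV16 arrays on replicate 4 without being flagged. Vegfc measured 3.75 on 1440739_at (against 6.51 to 8.13), Vegfa 8.43 on 1420909_at (against 6.23 to 6.90) and Kdr 7.25 (against 6.29 to 6.59). In all, 42 groups of values were examined, over 21 probe sets in INV16 and MIB control, and chance flags about 1 in 20. Groups of 3 arrays, such as the ACD mutant, were not examined.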

How the results depend on the processing

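The count of genes called in INV16 against MIB control (219) was 20 with INV16 replicate 4 in its group, 30 within spike-in set A, 93 in the 2-group fit and 0 with replicate numbers as a block (480 at unadjusted p under 0.05 by limma), and 29 to 332 with single arrays left out. Members called (2) were 0 (2 at unadjusted p under 0.05), 1, 2 and 0 (0 unadjusted) in these fits and 0 to 2 with single arrays left out. In the ACD mutant against MIB control (220 genes, 0 members) the count was 0 with replicate 4 included (892 at unadjusted p under 0.05), 20 with the spike-in block, 42 within set B, 384 over all probe sets, 72 in the 2-group fit and 3 to 591 with single arrays left out, with 0 to 1 members. In INV16 against the ACD mutant (267 genes, 1 member) it was 5 with replicate 4 included, 0 with the spike-in block (1492 at unadjusted p under 0.05), 840 in the 2-group fit and 36 to 505 with single arrays left out; members were 0 (1 unadjusted), 0 (2 unadjusted), 1 and 0 to 2. The replicate block gave 380 genes and 2 members there. As above, nothing is read from the counts of members in the comparisons of INV16. INV16 and the ACD mutant share only numbers: deviations of same-numbered arrays correlated at -0.16, -0.18 and -0.31. For INV16 against MIB control the block rests on replicates 3 and 4, so on the array that stood apart, and gave -0.58 for Nrp1 and -0.66 for Vegfc. No spike-in set held both INV16 and the ACD mutant without replicate 4.

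Signs also turned among the small differences. In INV16 against MIB control Vegfa turned to 0.12 with replicate 4 included and 0.30 with the replicate block, Nrp2 to -0.045 with the spike-in block or within set A and -0.10 without INV16 replicate 3, and Flt4 to -0.013 without that array. In INV16 against the ACD mutant Vegfb turned to 0.14 and Nrp2 to -0.069 with the spike-in block, Vegfa to 0.34 with replicate 4 included and 0.069 without INV16 replicate 1, and Kdr to 0.13 with replicate 4 included, 0.022 without INV16 replicate 2 and 0.028 without ACD mutant replicate 2. On other sets Flt4 gave 0.11, Flt1 -0.032 and Nrp2 -0.11 there. In the ACD mutant against MIB control Nrp1 turned to 0.29 with the spike-in block and within set B and ranged from -0.23 to 0.16 with single arrays left out. Nrp2 turned to 0.024 under both and to 0.0081 and 0.17 on other sets, Flt1 ranged from -0.12 to 0.056 and gave 0.074 and 0.093 on other sets, and Flt4 gave -0.027 on its second set. Member values under alternatives numbered 165 in INV16 against MIB control and 157 in INV16 against the ACD mutant. Of these, 149 and 144 moved by less than the residual SD of their gene, whether or not a call was lost. In the ACD mutant against MIB control 139 of 157 kept their sign and stayed called or not called as before. These counts include settings that leave a fold change as it was by construction. They are the other filters, the 2-group fits, arrays left out of the group not compared, and the replicate block for INV16 against the ACD mutant. The counts are thus no measure of stability. Why member values changed was not tested. Depth is not known for arrays.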
